A study of Mus musculus with 908 samples.

Results

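Kallikreins are secreted serine proteases, and the 9 genes described here were 7 tissue kallikreins (Klk5, Klk6, Klk7, Klk8, Klk10, Klk11 and Klk13) and 2 protease inhibitors of the epidermis (Slpi and Spink5). They were chosen by name, with earlier results of these data known, so their levels are given as a description and carry no test. All 9 were found among 46517 gene rows. The cells came from mouse skin squamous cell carcinoma, were sorted singly by flow cytometry and were sequenced by Smart-seq2, a full-length single-cell protocol, in a study of immune resistance and tumour-initiating cells.

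Before therapy, 4 gates were sorted from tumours of strain TRE-HrasG12V;SBE-mCherry-PGK-rtTA3, whose name gives activated Hras under the inducible TRE promoter and mCherry under a SMAD-binding element, a reporter of TGF-beta signalling. Reporter-positive cells had integrin α6, mCherry, CD34 and CD44 at once, CD44+ reporter-negative cells had α6 and CD44 without the other markers, CD44-negative α6+ cells had α6 alone, and α6-negative cells had none of these markers. Cells after adoptive cell transfer (ACT) came from another strain, TRE-OVA;TRE-HrasG12V:PGK-rtTA3P2AmCherry, in which the TRE promoter also drives ovalbumin (OVA) and mCherry follows the PGK promoter instead of the SMAD element. Their only positive marker was mCherry, and α6, CD34 and CD44 were not used. CD31, CD45, CD117 and CD140a were excluded in each of the 5 gates, and the labels give mixed sex and postnatal day 60 to 90 for every sample. Strain, meaning of mCherry, gate and therapy all differ between the cells before and after transfer and cannot be told apart.

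In the epidermis, kallikreins are made as inactive precursors by keratinocytes of the upper layers and are secreted into the spaces between cornifying cells. Klk5 can activate itself and other kallikreins, and Klk5 and Klk7 cut corneodesmosin and desmogleins, the adhesion proteins that must be removed when dead cells are shed. Spink5 encodes LEKTI, an inhibitor whose fragments hold Klk5 and Klk7 in check and whose loss causes Netherton syndrome, and Slpi encodes a secreted inhibitor of elastase and of Klk7.

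The 7 kallikreins lie in a row on chromosome 7 (mm10, GENCODE M21), all on the plus strand, between 43712567 and 43851181, a stretch of 138.6 kb. In order of position they are Klk13, Klk11, Klk10, Klk8, Klk7, Klk6 and Klk5. Klk8, Klk10, Klk11 and Klk13 overlap 2310002F09Rik, a noncoding gene on the opposite strand. Use of strand in the counting is not stated in the labels or processing notes, so reads of these genes and of that transcript cannot be told apart where they overlap. Listed levels of 2310002F09Rik were low, with means of 0 to 0.342 TPM (a length-normalised share of a library's transcripts) over the 5 gates.

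RefSeq's promoter table (GRCm38.p6, 250 bases before and 50 after each start) was matched for 8 of the 9 genes, all but Spink5, in 10 entries, with Klk6 and Klk11 entered at 2 starts each. Shown are the 150 bases before the start of 4 kallikreins chosen as examples, Klk8 and Klk10, which most cells of 3 gates held, and Klk6 (its second start) and Klk7, which a minority held in every gate. All are on the plus strand and are written 5′ to 3′. Capitals mark TTAAAA in Klk8, Klk10 and Klk6 and, nearest the 5′ end of Klk6, GGAATG.
Klk8, chr7:43797427-43797576: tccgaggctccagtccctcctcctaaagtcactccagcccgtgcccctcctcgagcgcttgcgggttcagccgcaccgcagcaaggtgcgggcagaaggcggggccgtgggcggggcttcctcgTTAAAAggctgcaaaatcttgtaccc
Klk10, chr7:43780904-43781053: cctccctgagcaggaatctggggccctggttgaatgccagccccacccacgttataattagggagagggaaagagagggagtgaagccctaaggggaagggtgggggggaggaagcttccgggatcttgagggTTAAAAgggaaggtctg
Klk6, chr7:43825300-43825449: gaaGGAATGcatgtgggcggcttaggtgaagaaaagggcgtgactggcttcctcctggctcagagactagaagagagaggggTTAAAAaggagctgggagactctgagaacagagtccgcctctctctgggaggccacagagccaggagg
Klk7, chr7:43811144-43811293: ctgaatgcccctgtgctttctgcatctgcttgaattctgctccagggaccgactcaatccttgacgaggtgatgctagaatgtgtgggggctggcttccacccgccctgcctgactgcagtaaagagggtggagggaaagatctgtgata

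Klk8, the kallikrein present in nearly every reporter-positive cell, had the promoter richest in CpG, with 18 CpG dinucleotides in the 250 bases before its start, against 2 to 7 in the other 9 entries and a median of 6 over 32851 promoters. As many as in Klk8 were found in 21.7% of all promoters. TTAAAA, whose letters were picked after these sequences had been read, stood 26 to 21 bases before the start of Klk8 and 17 to 12 before that of Klk10. It was 68 to 63 bases before the second start of Klk6, was also present further upstream in Klk11 and Slpi, and occurs on either strand in 17.7% of all promoters. GGAATG, the core letters of TEAD sites, is found in 12.6% of promoters and matched the second start of Klk6 alone. TGANTCA (the AP-1 site, 6.75% of promoters), TATAAA (12.4%), the palindromic SMAD-binding element (0.167%) and AACNGGTT (the grainyhead site, 1.79%) matched none of the 10 entries on either strand. A match is a match of letters and shows no bound factor.

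The cells analysed were 72 reporter-positive cells on plate CSC1 and 32 on plate CSC2, 14 CD44+ reporter-negative, 91 CD44-negative α6+, 42 α6-negative, and after transfer 87 on plate OT2 and 90 on plate OT_B. Each had 2000 or more genes that reached a TPM of 1, the level at which a gene is called present in a cell below, and ranges in parentheses after a share are exact 95% intervals. Medians ran from 5519.5 genes in the α6-negative gate to 7758 in reporter-positive cells. TPM keeps no read depth, so genes per cell stand in for it. The labels name no animal, so each gate is 1 sample, differences between gates have no replicate check, and these intervals cover counting error over cells only. Plates OT_C and OT_D, labelled after therapy, hold libraries that match 71 wells of CSC1, 25 of CSC2 and 14 of the CD44+ plate by well and by expression, and they were left out of the after-transfer group. The files do not settle which label holds. Every comparison with the reporter-positive or the CD44+ gate rests on their label before therapy. Keratinocyte markers led in all reporter-positive, CD44-negative α6+ and after-transfer cells, but in 27 of 42 α6-negative and 11 of 14 CD44+ reporter-negative cells. The rest were led by fibroblast markers (13 and 1 cells) or by pericyte and muscle markers (2 in each gate).

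The members differed in how their transcripts were spread over cells. Klk8 and Klk10 were present at moderate levels in most reporter-positive, CD44-negative α6+ and after-transfer cells. Klk11, Klk13, Slpi and Spink5 were present in shares that varied by gate, below 50% but for Klk13 after transfer. Klk5, Klk6 and Klk7 were at 0 in most cells, and Klk6 and Klk7 exceeded 1000 TPM in a few reporter-positive or α6-negative cells, while the highest Klk5 cell held 244.2. Of 45 combinations of gene and gate, 37 had a median of 0 TPM, and the standard deviation over cells exceeded the mean in all 43 with any value above 0. Means below are therefore given beside medians, shares and the highest cell.

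**Figure D1:**
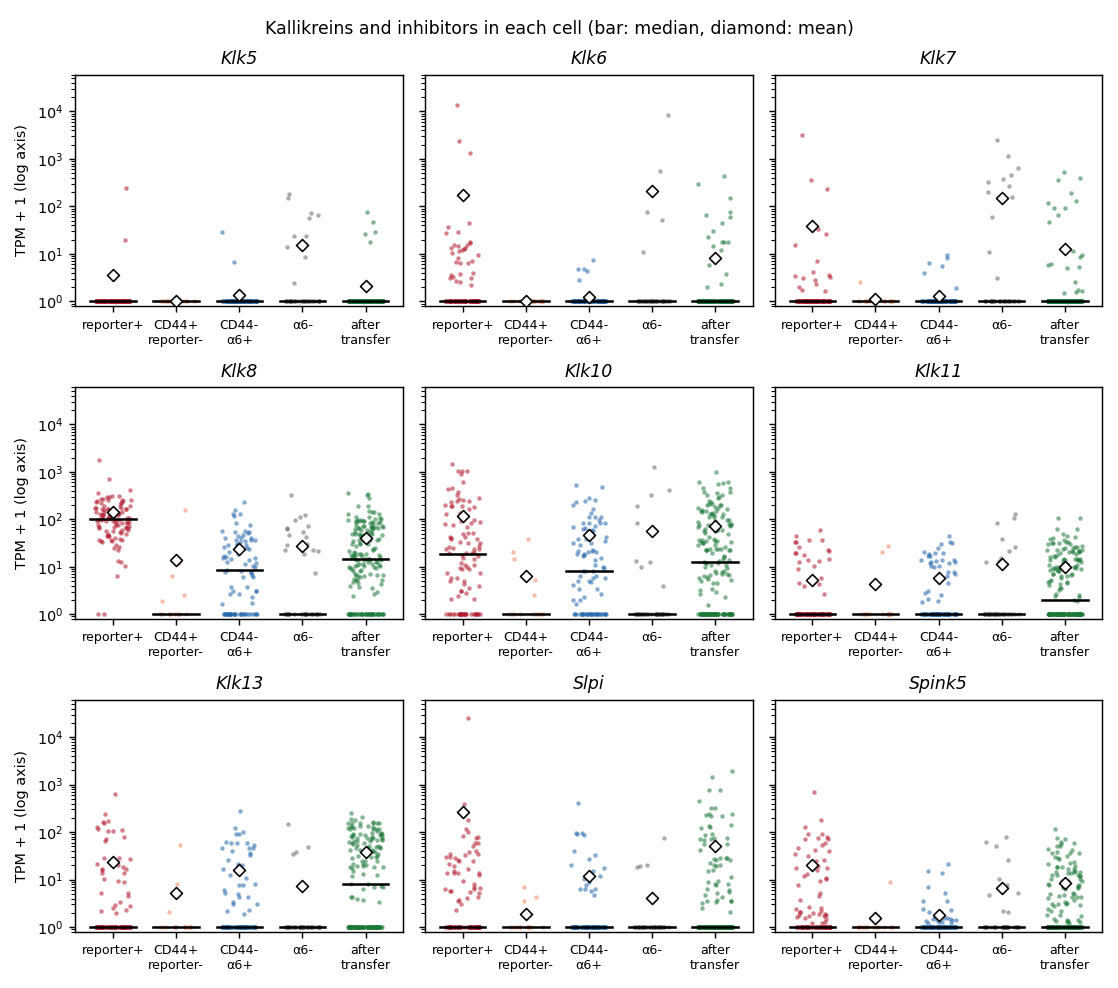
Each point is 1 cell, with TPM + 1 on a log axis, in the 5 gates along the horizontal axis. Bars are medians and diamonds means. Klk8 forms a raised cloud in reporter-positive cells (median 100.7 TPM), while the means of Klk6, Klk7 and Slpi there sit far above most cells, drawn up by a cell at 13623, 3186 and 25403 TPM.

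Klk8, a trypsin-like protease also known as neuropsin, was the most widespread member and had its highest mean in the reporter-positive gate. Reporter-positive cells ranged from 0 to 1791 TPM with a median of 100.7, and CD44-negative α6+ cells from 0 to 230.6 with a median of 7.65. After transfer the range was 0 to 349.3 and the median 13.8, and in the α6-negative and the CD44+ reporter-negative gates the medians were 0 and the highest cells 322.1 and 152.2. The ranges overlapped, but Klk8 reached a TPM of 1 in 98.1% of reporter-positive cells (93.2 to 99.8) against 61 of 91 CD44-negative α6+ cells (67.03%, 56.4 to 76.5). On plate CSC1 no cell was below 11.3 TPM. Among cells of like depth, with 6000 to 8000 genes, the shares were 57 of 57 and 49 of 69 cells, and 79% after transfer. Mean Klk8 was 140.7 ± 193.4 TPM against 22.7 ± 37.9 (SD over cells), 5.98-fold on the ratio of mean TPM + 1, and 2.56 on the log2 scale without the highest cell of each gate instead of 2.58.

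Klk10, a kallikrein first described as a gene lost in breast cancer cells, was present in most cells of 3 gates. It was present in 75% of reporter-positive cells (65.6 to 82.97), 61 of 91 CD44-negative α6+ cells (67.03%, 56.4 to 76.5) and 66.1% of cells after transfer (58.6 to 73.03), intervals that overlap. It was present in 9 of 42 α6-negative cells (21.4%, 10.3 to 36.8). Reporter-positive cells ranged from 0 to 1479 TPM with a median of 17.4, CD44-negative α6+ cells from 0 to 515.99 with a median of 7.15, and cells after transfer from 0 to 976 with a median of 11.6. The upper tail was longer in reporter-positive cells, where 4 cells exceeded 1000 TPM, and the means were 114.8 ± 251.1, 46.2 ± 90.8 and 72.9 ± 139.3 TPM (SD over cells).

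Over all cells of a gate, Klk11 and Klk13, both trypsin-like, had their highest shares after transfer. Klk13 was present in 55.9% of cells there (48.3 to 63.4), in 35.6% of reporter-positive cells (26.4 to 45.6), in 36 of 91 CD44-negative α6+ cells (39.6%, 29.5 to 50.4) and in 4 of 42 α6-negative cells (9.52%, 2.66 to 22.6). Klk11 was present in 49.7% of cells after transfer (42.1 to 57.3) against 22.1% of reporter-positive cells (14.6 to 31.3). Its share was 31 of 91 CD44-negative α6+ cells (34.1%) and 21.4% of α6-negative cells. Klk11 stayed low wherever it was present, with highest cells of 57.4, 43.2 and 105.1 TPM in reporter-positive, CD44-negative α6+ and after-transfer cells. Klk13 reached 626, 279.97 and 253.2 TPM there. The shares varied with genes per cell. With 6000 to 8000 genes, Klk13 was present in 60.5% of cells after transfer and 47.4% of reporter-positive cells, and Klk11 in 48.4% and 24.6%. Under 6000 genes the shares were 52.3% and 18.2% for Klk13 and 63.6% and 36.4% for Klk11. With 8000 or more genes the order turned, at 11.1% and 22.2% for Klk13 and 0% and 13.9% for Klk11. That band held 9 cells after transfer and 36 reporter-positive cells. On the 2 plates after transfer Klk11 was present in 43.7% (OT2) and 55.6% (OT_B) of cells and Klk13 in 52.9% and 58.9%, above the reporter-positive shares on each plate, although for Klk13 the intervals of OT2 (41.9 to 63.7) and of reporter-positive cells overlap.

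**Figure D2:**
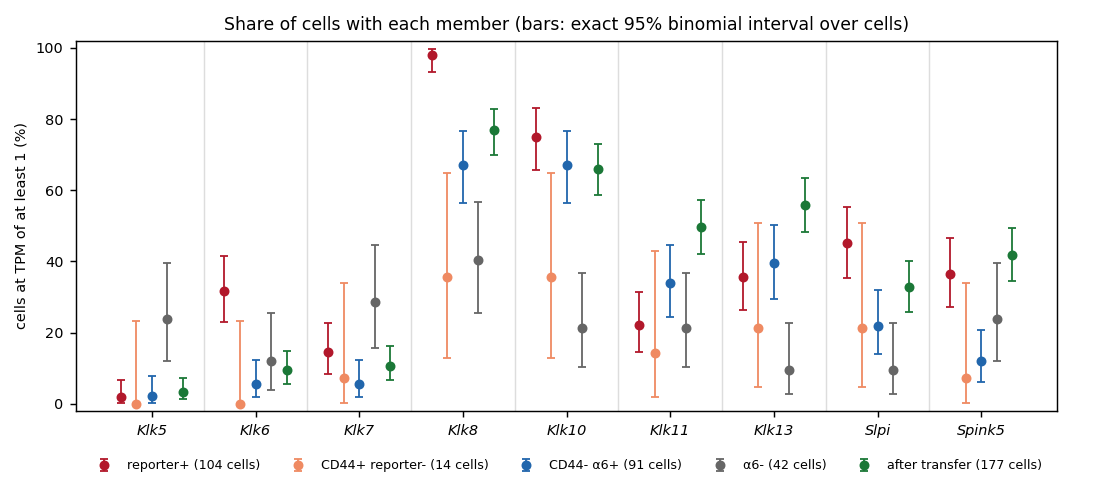
Percent of cells with a TPM of at least 1 for each of the 9 genes, with exact 95% binomial intervals over cells, in the 5 gates. Klk8 in reporter-positive cells is at 98.1%, Klk6 is highest in reporter-positive cells (31.7%), Klk5 and Klk7 in α6-negative cells (23.8% and 28.6%), and Klk11 and Klk13 after transfer (49.7% and 55.9%).

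Klk6, a trypsin-like protease abundant in the nervous system and raised in several carcinomas, was more often present in reporter-positive cells than elsewhere, over all cells. It was present in 31.7% of them (22.9 to 41.6), in 9.6% of cells after transfer (5.7 to 14.9), in 5 of 91 CD44-negative α6+ cells (5.49%, 1.81 to 12.4) and in 5 of 42 α6-negative cells (11.9%, 3.98 to 25.6). It was in 0 of 14 CD44+ reporter-negative cells, which allows a share of up to 21.4%. The repeat library of 1 well of that plate did hold Klk6, at 11.84 TPM. With 6000 to 8000 genes, Klk6 was present in 28.1% of reporter-positive cells, 6.45% after transfer, 5.8% of CD44-negative α6+ and 6.67% of α6-negative cells. Under 6000 genes it was in 1 of 11, 8 of 44, 0 of 14 and 4 of 25 cells in that order. Of reporter-positive cells with 8000 or more genes, 16 of 36 held it. In the 33 positive reporter-positive cells the median was only 10.3 TPM, but 3 cells held more than 1000. These were the cell in well F8 of plate CSC2 at 13623, that in well B11 of CSC1 at 2373 and that in well C10 of CSC2 at 1305 TPM. The F8 cell alone made 77.2% of all Klk6 TPM in the gate, and the mean of 169.6 TPM became 38.96 without it. The α6-negative gate behaved alike: its mean of 214.3 TPM became 17.2 without the cell in well G2 of plate TN, which held 8293. The highest cell was 6.32 TPM in the CD44-negative α6+ gate and 430.7 after transfer.

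Klk7, the chymotrypsin-like enzyme of the cornified layer, and Klk5, its trypsin-like activator, had their highest shares in the α6-negative gate. Klk7 was present in 12 of 42 α6-negative cells (28.6%, 15.7 to 44.6), 14.4% of reporter-positive cells (8.3 to 22.7), 10.7% of cells after transfer (6.59 to 16.3) and, least often, in 5.49% of CD44-negative α6+ cells (1.81 to 12.4). Where present it was abundant in α6-negative cells, with a median of 299.1 TPM over the 12 positive cells, against 45.7 over the 19 positive cells after transfer and 3.18 over the 15 positive reporter-positive cells. Klk5 was present in 10 of 42 α6-negative cells (23.8%, 12.1 to 39.5) and in no more than 3.39% of the cells of any other gate. All 10 Klk5-positive and all 12 Klk7-positive α6-negative cells were among the 27 led by keratinocyte markers. The order of the Klk7 shares changed with genes per cell. With 6000 to 8000 genes, Klk7 was present in 13.3% of α6-negative and 15.8% of reporter-positive cells. It was in 3.23% of cells after transfer there, below the 7.25% of CD44-negative α6+ cells. Under 6000 genes the shares were 40%, 18.2%, 31.8% and 0% in the same order of gates. Of the 19 positive cells after transfer, 14 had under 6000 genes. On plate CSC1 Klk5 was listed at 0 in all 72 cells, which allows a share of up to 4.17%.

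The most extreme cells carried several members at once. In the F8 cell of CSC2, Klk6, Klk7, Klk8, Klk13, Slpi and Spink5 all had their highest reporter-positive value, at 13623, 3186, 1791, 626, 25403 and 692 TPM, and Klk5 was at 244.2. That cell also had 17669 TPM of Sprr1a and 2949 of Cnfn, precursors of the cornified envelope, 54.7 of the basal keratin Krt5, and 0 of Itga6, the α6 integrin on which the gate was set. The G2 cell of the α6-negative gate had 8293 TPM of Klk6, 2557 of Klk7, 1259 of Klk10 and 12509 of Sprr1a, but only 18.4 of Slpi. A kallikrein sum of at least 1000 TPM was reached by 13 cells, 7 reporter-positive, 3 α6-negative and 3 after transfer. All 13 were led by keratinocyte markers, 12 had over 1000 TPM of Sprr1a, and all had under 20 TPM of Krt1 and of Krt10, the keratins of early differentiation. Over the whole reporter-positive gate, Krt1 and Krt10 averaged 42.4 and 7.14 TPM. Their means were 217.98 and 72.93 TPM in α6-negative cells and 643.86 and 236.58 TPM after transfer. Shares of cells did not follow these means. Of reporter-positive cells, Krt1 and Krt10 were present in 87.5% and 79.2% on plate CSC1 and in 43.75% and 34.4% on CSC2. They were present in 21.4% and 38.1% of α6-negative cells, and in 66.7% and 68.4% of cells after transfer.

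High values were found again when the same well was sequenced a second time. In the repeat library of F8, Klk6 was at 13502 TPM and Slpi at 28613, and in that of B11 on CSC1 Klk6 was at 2198. A pair of libraries from the same well was taken as a repeat when each was the other's best match at a Pearson r of at least 0.8. Of the same-well pairs, this held for 71 of 72 for CSC1, 25 of 30 for CSC2 and 14 of 15 for the CD44+ plate. It held for 46 of 71 for OT2 and 35 of 68 for OT_B. Both libraries of a pair gave the same answer on whether a gene reached 1 TPM in 89.01% (Slpi) to 100% (Klk5) of pairs, and for Klk8 in 98.4%. When only 1 library of a pair held a transcript, its level was at most 17.5 TPM for the kallikreins and 2.93 for Spink5, but up to 93.01 for Slpi. Shared absence counts as the same answer, and it made up most pairs for every member but Klk8 and Klk10. Klk5 was held by both libraries in 3 pairs and by only 1 library in 0. For Klk6 these counts were 31 and 14, for Klk11 56 and 17, and for Slpi 55 and 21. Pairs were matched by well and by their correlation over all genes, so they give technical error and no spread between animals. Same-well pairs that did not match were left out, so the agreement may be higher than over all same-well pairs.

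**Figure D3:**
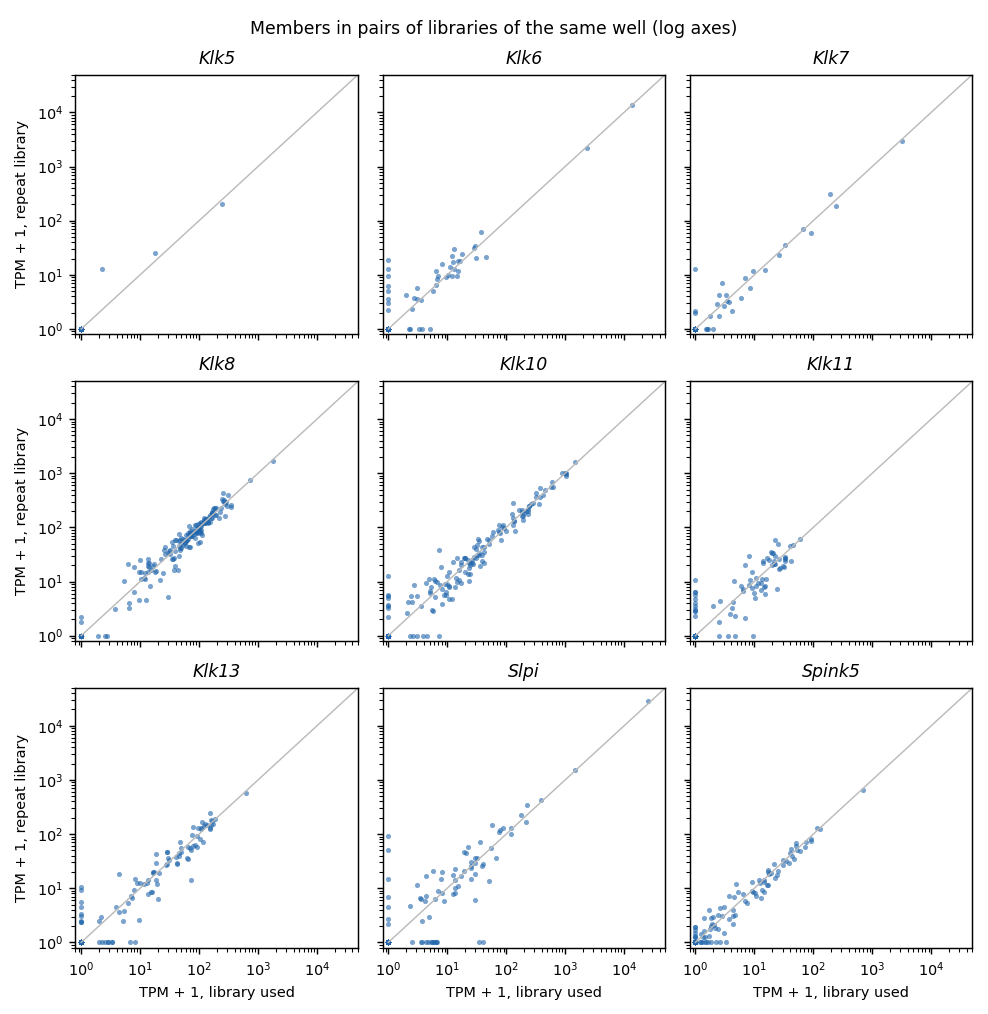
Each point is 1 pair of libraries of the same well, with TPM + 1 in the library used on the horizontal and in its repeat on the vertical log axis, and the diagonal as the line of equality. Points above about 100 TPM stay near the diagonal, up to the F8 cell at 13623 and 13502 TPM of Klk6, while Slpi has pairs off the diagonal with 1 library at 0 and the other at up to 93.01 TPM.

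Slpi (mm10 chromosome 2, 164354070 to 164389095, minus strand) was present in 45.2% of reporter-positive cells (35.4 to 55.3), 32.8% of cells after transfer (25.9 to 40.2), 20 of 91 CD44-negative α6+ cells (21.98%, 13.97 to 31.9) and 4 of 42 α6-negative cells (9.52%, 2.66 to 22.6). Its means were set by few cells. Of the reporter-positive sum, 93.7% came from the F8 cell, and the mean of 260.8 TPM became 16.7 without it. After transfer the mean was 49.8 TPM, with highest cells of 1978 and 1483, and it was 38.8 without the highest. In CD44-negative α6+ cells the mean was 10.9 and the highest cell 417.3 TPM.

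Spink5 (mm10 chromosome 18, 43963235 to 44022501, plus strand) was present in 36.5% of reporter-positive cells (27.3 to 46.6), 41.8% of cells after transfer (34.5 to 49.4), 10 of 42 α6-negative cells (23.8%, 12.1 to 39.5), 11 of 91 CD44-negative α6+ cells (12.1%, 6.19 to 20.6) and 1 of 14 CD44+ reporter-negative cells. Its level was modest, with means of 18.95, 7.65, 5.79, 0.789 and 0.576 TPM in that order, and 12.4 in reporter-positive cells without the F8 cell. The highest cell was 19.9 TPM in the CD44-negative α6+ gate and 116.6 after transfer. Reporter-positive and after-transfer shares overlapped in their intervals, and both lay above that of CD44-negative α6+ cells.

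Reporter-positive against CD44-negative α6+ cells asks what goes with the reporter, CD34 and CD44 among α6+ tumour cells. Of the 9 genes, 7 were at least 2-fold higher in reporter-positive cells (all but Klk11 and Klk13) and 0 lower, where 9.89% of 11889 genes with a mean of at least 1 TPM in either gate were higher and 4.8% lower. The members' median log2 ratio was 2.58, against 0.07 over those genes. Without the highest cell of each gate, Klk6 went from 7.14 to 5.13 on the log2 scale, Klk7 from 4.86 to 2.66, Slpi from 4.46 to 1.27 and Klk5 from 1.37 to 0.15, while Klk10 (1.30 to 1.29) and Spink5 (3.48 to 3.09) kept their values nearly. With plate CSC1 alone, Slpi was at -0.18 and Klk5 at -0.45. Klk6, Klk7, Klk8, Klk10 and Spink5 were thus at least 2-fold higher without the highest cells and also on plate CSC1 alone (4.90, 1.83, 2.43, 1.2 and 2.30), and the higher values of Slpi and Klk5 rested on plate CSC2. That of Klk7 rested on 3 cells above 100 TPM, since the other cells of CSC1 averaged 0.414 TPM without the B11 cell, against 0.321 in CD44-negative α6+ cells.

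The plates of the reporter-positive gate differed in the same genes. On CSC2 over CSC1, 5 members were at least 2-fold higher, counting Klk5, which was listed at 0 on CSC1, and 0 lower, against 8.59% and 6.22% of genes. Klk5 rested on 1 cell there, with a log2 ratio of 3.20 that was 0.68 without the highest cell of each plate. Klk6 was present in 18 of 72 cells on CSC1 (25%, 15.5 to 36.6) and 15 of 32 on CSC2 (46.9%, 29.1 to 65.3), with means of 35.3 and 471.7 TPM, of which B11 and F8 held 93.3% and 90.3%. Spink5 was present in 20 of 72 and 18 of 32 cells, with means of 7.79 and 44.1 TPM, and the log2 ratio of 2.36 was 1.67 without the highest cell of each plate. Klk8 (126.8 and 172.2 TPM) and Klk10 (107.1 and 132.2 TPM) differed by less than 2-fold. Suprabasal markers moved the same way between the plates, with 8 of 11 higher on CSC2 and 1 lower, and basal markers the other way, with 1 of 8 higher and 5 lower. Their part in the difference was not tested.

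**Figure D4:**
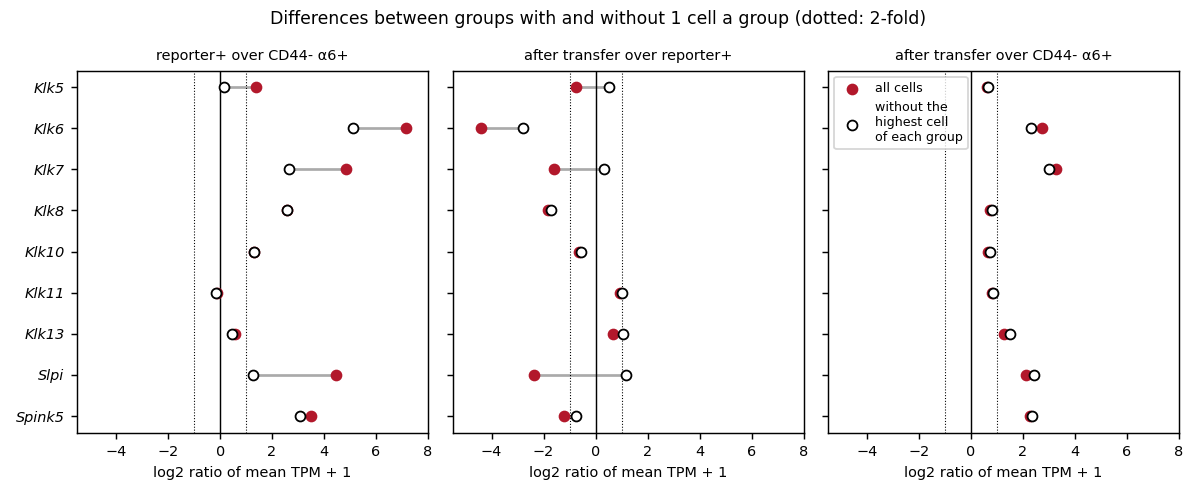
Log2 ratio of mean TPM + 1 for the 9 genes in 3 comparisons, with all cells (filled) and without the highest cell of each group (open), and dotted lines at 2-fold. For reporter-positive over CD44-negative α6+ cells Slpi drops from 4.46 to 1.27, and for cells after transfer over reporter-positive cells it crosses 0, from -2.37 to 1.17.

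The second comparison set reporter-positive cells against the CD44+ reporter-negative gate, which has the same α6 and CD44 markers. There 8 of 9 genes were at least 2-fold higher in the reporter-positive gate and 0 lower, against 12.8% and 17.2% of genes. The 8 include Klk5 and Klk6, listed at 0 in the CD44+ cells, although 1 repeat library of that plate held Klk6 at 11.84 TPM. Klk5 was within 2-fold without the highest cell of each gate (log2 ratio 1.82 to 0.24). Klk8 was at 140.7 against 13.02 TPM, Klk10 at 114.8 against 5.38, Klk13 at 23.01 against 4.33, and Klk11 differed by less than 2-fold (4.25 and 3.23 TPM). The CD44+ gate held only 14 cells. Of these, 3 were not led by keratinocyte markers and had 0 TPM of every member. In the 11 keratinocyte-led cells Klk8 and Klk10 were each present in 5, and the highest Klk8 cell, at 152.2 TPM, made 83.5% of the gate's sum. Sex-linked transcripts differed as well. Xist without a Y-linked transcript marked 11 of the 14 CD44+ cells and 0 reporter-positive cells, 98 of which had a Y-linked transcript without Xist, so sex and gate cannot be told apart here.

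The CD44-negative α6+ gate was the one with many cells of each kind, 42 with Xist and 45 with a Y-linked transcript alone. Klk8 was present in 61.9% and 71.1% of them and Klk10 in 64.3% and 68.9%. Slpi was in 5 of 42 (11.9%) and 14 of 45 (31.1%), Klk6 in 0 and 3, and Klk5 in 0 and 2. Mean Klk10 was 28.3 and 63.3 TPM. When only the cells with a Y-linked transcript stood for the gate, no count of members given for it changed by more than 1.5 times. With only the Xist cells, the count of members higher after transfer went from 5 to 9.

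CD44+ reporter-negative against CD44-negative α6+ cells showed, of the 5 members with a mean of at least 1 TPM in either gate, 0 higher and 3 lower (Klk10, Klk13 and Slpi, at 5.38, 4.33 and 0.859 against 46.2, 15.2 and 10.9 TPM), where 17.7% of genes were higher and 6.66% lower. Pericyte and muscle markers were higher in the CD44+ gate in 7 of 7 genes, with summed levels of up to 3149 against 327.5 TPM. Suprabasal markers were lower there in 8 of 11 genes, and stress keratins and alarmins in 6 of 6. The part of these lists in the difference was not tested.

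CD44-negative α6+ against α6-negative cells asks what differs with α6. Klk13 and Slpi were at least 2-fold higher in the α6+ cells and Klk5, Klk6, Klk7, Klk11 and Spink5 lower, where 8.98% of genes were higher and 25.1% lower. Mean Klk7 was 0.321 against 147.7 TPM, Klk5 0.368 against 14.05 and Spink5 0.789 against 5.79. Klk7 (log2 ratio -6.81) stayed at -6.19 without the highest cell of each gate and Klk5 (-3.46) at -3.35. Spink5 went from -1.92 to -1.66 and Klk11 from -1.01 to -0.71. Klk6, present in 5.49% and 11.9% of cells, went from -7.47 to -3.99. The α6-negative gate is a mixture. With keratinocyte-led cells only, Klk13 was within 2-fold (log2 ratio 0.56 instead of 1.13) and Slpi was still higher (1.96). Its 15 cells led by fibroblast or pericyte markers had 0 TPM of every member except Klk8 in 1 cell and Slpi in 1 cell, and in its 27 keratinocyte-led cells Klk7 was present in 12 (44.4%), Klk8 in 16 (59.3%) and Klk10 in 9 (33.3%). α6-negative cells also had the fewest genes (median 5519.5) and the most spike-in TPM (median 2.97%, against 0.13% to 0.54% elsewhere). Of the 12 Klk7-positive cells, 10 had under 6000 genes.

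Cells after transfer were compared with reporter-positive cells and with CD44-negative α6+ cells. The 2 comparisons share the after-transfer cells, and the first shares the reporter-positive cells with those above. Against reporter-positive cells 5 of 9 members were at least 2-fold lower (Klk6, Klk7, Klk8, Slpi and Spink5) and 0 higher, against 8.68% and 3.17% of 11707 genes. Klk8 (38.7 against 140.7 TPM, log2 ratio -1.84) and Klk6 (7.12 against 169.6, -4.39) stayed lower without the highest cell of each group, at -1.73 and -2.81. Slpi went from -2.37 to 1.17 and Klk7 from -1.59 to 0.33. Without plate CSC2, 5 members were higher and 2 lower, with Slpi at 2.28 and Klk7 at 1.44. The direction for Slpi and Klk7 thus depended on 1 cell of 1 plate. Spink5 (-1.21) was within 2-fold in both cases, at -0.74 without the highest cells and -0.02 without CSC2.

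Against CD44-negative α6+ cells 5 of 9 members were at least 2-fold higher after transfer (Klk6, Klk7, Klk13, Slpi and Spink5) and 0 lower, against 3.91% and 4.71% of 11503 genes. Klk13 was at 37.6 against 15.2 TPM, Spink5 at 7.65 against 0.789 and Slpi at 49.8 against 10.9, with log2 ratios of 1.25, 2.27 and 2.10 that were 1.49, 2.35 and 2.44 without the highest cell of each group. Klk8, Klk10 and Klk11 were within 2-fold. The 2 plates after transfer differed little. On OT_B over OT2 only Klk5 was higher (1.83 against 0.320 TPM) and only Klk8 lower (23.6 against 54.3), against 1.56% and 4.52% of genes.

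Kallikreins were often present together in a cell. In reporter-positive cells 2 or 3 of the 7 was the usual number (33 and 30 cells), 19 cells held 4, 8 cells held 5 to 7, and 2 held none. After transfer 4 was the commonest number (31.1% of cells), and on plate OT2, 25 of 87 and on OT_B 30 of 90 cells held 4. In the CD44-negative α6+ gate 32 of 91 cells held 2, and 18 held 4. Of the α6-negative cells 22 of 42 held none and 10 held 4 or more. All 7 were present in 2 reporter-positive, 1 α6-negative and 4 after-transfer cells.

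**Figure D5:**
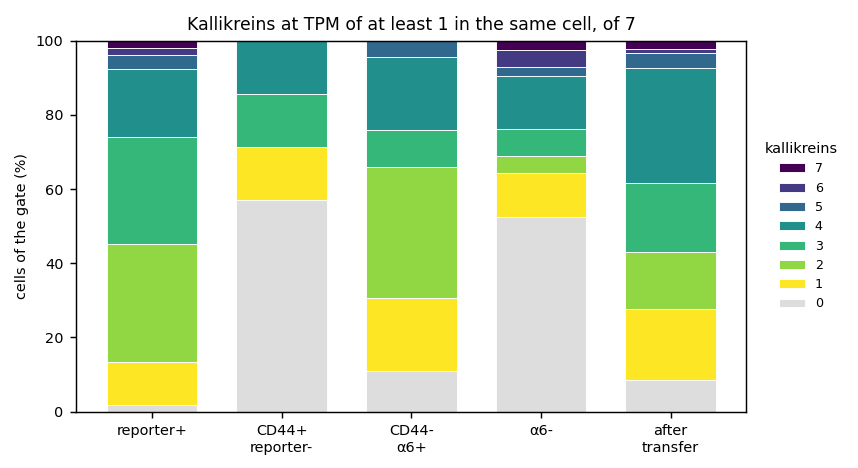
Stacked bars give the percent of cells in each gate that hold 0 to 7 of the 7 kallikreins at a TPM of at least 1. Cells with none are 1.92% of the reporter-positive gate and 52.4% of the α6-negative gate, and cells with 4 are the largest class after transfer (31.1%).

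Which kallikreins went together followed in part their order on the chromosome. Klk13, Klk11 and Klk10, which are neighbours among the members, had pairwise Spearman coefficients of log2(TPM + 1) of 0.44 to 0.60 over reporter-positive cells, 0.38 to 0.49 over 91 CD44-negative α6+ cells, 0.56 to 0.73 over 42 α6-negative cells and 0.39 to 0.72 over cells after transfer. Of the 37 reporter-positive cells with Klk13, 36 also held Klk10. Klk7, Klk6 and Klk5, at the other end of the row, had coefficients of 0.35 to 0.53 after transfer and 0.36 to 0.85 in α6-negative cells, where 9 of 10 Klk5-positive cells also held Klk7. They were lower in reporter-positive cells (0.24 to 0.37) and in CD44-negative α6+ cells (-0.06 to 0.28). Between the 2 runs the medians of 9 pairs were 0.14 after transfer, 0.15 in reporter-positive and 0.01 in CD44-negative α6+ cells, but 0.37 in α6-negative cells. Klk8, which lies between them, had medians of 0.22 to 0.48 with the other 6 in these 4 gates. The runs were drawn after the coefficients had been seen, cells of a gate share plates and depth, and the sparse genes rest on few positive cells. Coefficients of the members with genes per cell lay between -0.35 and 0.26 in these 4 gates.

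In reporter-positive cells and after transfer, both inhibitors had higher coefficients with Klk10 and Klk13 than with Klk6 or Klk7. In reporter-positive cells Spink5 correlated at 0.67 with Klk13, 0.59 with Klk11 and 0.56 with Klk10, but at 0.12 with Klk6 and 0.21 with Klk7, and Slpi at 0.54 with Klk13 and 0.58 with Spink5. After transfer Spink5 correlated at 0.63 with Klk10 and with Slpi, 0.58 with Klk13, 0.28 with Klk6 and 0.12 with Klk7. In α6-negative cells it correlated at 0.67 with Klk7 and with Klk10. Of cells with a kallikrein, Spink5 was present in 37.3% (27.9 to 47.4) of reporter-positive, 45.1% (37.2 to 53.1) of after-transfer, 13.6% (6.98 to 23.001) of CD44-negative α6+ and 50% (27.2 to 72.8) of α6-negative cells. Cells without any kallikrein held Spink5 in 1 of 15 after transfer and in 0 of 2, 10 and 22 in the other 3 gates. Slpi was less tied to them in α6-negative cells, where 3 of 20 cells with a kallikrein held it. Klk7 and Spink5, a protease and its inhibitor, were found together in 8 of 12 Klk7-positive α6-negative, 10 of 15 reporter-positive, 9 of 19 after-transfer and 0 of 5 CD44-negative α6+ cells.

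Genes most like the kallikreins were ranked by their Spearman coefficient with the summed TPM of the 7. In reporter-positive cells the 5 highest of 9467 genes were Tubb2a (a beta tubulin, 0.70), Elovl4 (an elongase of very long chain fatty acids, 0.62), S100a16 (0.60), S100a9 (a calprotectin subunit, 0.60) and Clic3 (0.56). After transfer, over 8551 genes, they were Sprr1b (a cornified envelope precursor, 0.69), Sult2b1 (a cholesterol sulfotransferase, 0.69), Crabp2 (a retinoic acid binding protein, 0.68), Tubb2a (0.68) and Pinlyp (0.66). Median coefficients over all ranked genes were -0.03 in each. The genes most like Slpi were Pla2g4f (0.63), Tgm1 (transglutaminase of the cornified envelope, 0.62), Crabp2 (0.62), Atp6v0a4 (0.61) and Grhl3 (a grainyhead factor of epidermal differentiation, 0.61) in reporter-positive cells. After transfer they were Gm94 (0.60), Tmem45b (0.59), Sprr1b (0.55), S100a8 (0.53) and S100a9 (0.53).

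Of the other kallikreins listed (Klk1, Klk4, Klk9, Klk12, Klk14 and Klk15), Klk1, Klk4 and Klk15 were listed at 0 in every gate and Klk14 averaged at most 0.21 TPM. Klk12 averaged at most 0.89 TPM in any gate. Klk9, which lies between Klk10 and Klk8, was present in 21.2% of reporter-positive cells, 21.5% of cells after transfer and 3.3% of CD44-negative α6+ cells. Its means of 8.63, 2.94 and 0.0876 TPM rest on few cells, with highest cells of 661, 248.05 and 4.01 TPM. Among 7 membrane-anchored serine proteases, 6 reached 1 TPM in reporter-positive or CD44-negative α6+ cells. Of these, 2 were at least 2-fold higher in reporter-positive cells and 0 lower. They were Tmprss11e (3.34 against 0.16 TPM) and Hpn (hepsin, 1.62 TPM, listed at 0 in the other gate).

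Of 12 other serine protease inhibitors 8 reached 1 TPM in that comparison, 2 were higher and 1 lower. Higher were Wfdc2 (15.6 against 0.46 TPM) and Spint1, which encodes the matriptase inhibitor HAI-1 (29.5 against 13.6), and Serpinb12 was lower (0.44 against 2.77). Without plate CSC2 Spint1 was just within 2-fold, at a log2 ratio of 0.95. After transfer over reporter-positive cells 4 of 9 were higher and 1 lower. Higher were Wfdc12 (15.1 against 0.02 TPM), Serpinb12 (6.97 against 0.44), Serpinb3a (6.64 against 0.88) and Wfdc5 (6.64 against 2.73), and Wfdc2 was lower (5.57 against 15.6). Kallikrein substrates and related signals had 2 of 8 higher and 2 lower in reporter-positive over CD44-negative α6+ cells. Cdsn, which encodes corneodesmosin, was at 4.16 against 0.59 TPM and Tslp, an epithelial cytokine, at 5.68 against 1.95, while the desmoglein Dsg1a was at 3.87 against 12.3 and Il18 at 1.96 against 9.44. The higher values of Cdsn and Tslp rested on plate CSC2. Cdsn was at 11.6 TPM there and 0.86 on CSC1, and Tslp at 18.03 and 0.19, so that without CSC2 the log2 ratio of Cdsn was 0.23 instead of 1.70 and that of Tslp -1.31 instead of 1.18. After transfer over reporter-positive cells 3 of 8 were higher, Dsg1a (29.7 against 3.87), Dsc1 (20.8 against 2.18) and Il18 (5.86 against 1.96), and Cdsn was lower (0.86 against 4.16), but equal at 0.86 TPM on plate CSC1 alone.

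Some markers of differentiation moved with the members and others moved against them. In reporter-positive over CD44-negative α6+ cells 6 of 11 suprabasal markers were higher, with Cnfn at 108.2 against 1.6 TPM, Sprr1a at 599 against 22.1 and Ivl (involucrin) at 38.03 against 4.1. Krt1 (42.4 against 562), Krt10 (7.14 against 122.97) and Calm4 were lower. After transfer over reporter-positive cells Krt1, Krt10 and Calm4 were higher and Ivl, Sprr1a and Cnfn lower. Of 8 basal markers, 3 were higher and 1 lower in the first of these comparisons, and 1 was higher and 5 lower in the second. Of 6 stress keratins and alarmins, 3 were higher and 0 lower in the first, and 1 was higher and 1 lower in the second. Over CD44-negative α6+ cells, Klk6 and Klk7 differed in the direction of Sprr1a, Cnfn and Ivl, not of Krt1 and Krt10, also without plate CSC2. After transfer over reporter-positive cells the same held with both plates only. Without CSC2 the log2 ratios were 0.53 for Cnfn instead of -1.12, -0.25 for Sprr1a instead of -1.14, -0.84 for Ivl instead of -1.52, 1.44 for Klk7 and -2.16 for Klk6, while Krt1 and Krt10 stayed higher after transfer (3.70 and 5.21). The part of these markers in the members' differences was not tested.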

How the data were processed

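Per the labels, squamous carcinoma cells from mouse skin were sorted singly into wells and sequenced by Smart-seq2. The deposited tables hold TPM, 1 column a library, which the authors made with Bowtie2 2.2.9 and RSEM 1.2.30 on mm10, per the submitters' processing notes. Read depth is lost in TPM, and how many genes reached a TPM of 1 stands in for it. Further steps of the authors' processing are not given in the sources used here.

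Of 908 libraries, 696 with at least 2000 such genes (spike-ins left out) were kept. Of these, 431 from plates CSC1, CSC2, CD44, DN, TN, OT2 and OT_B were used, and repeat plates served as a check. Library pairs of 1 plate with a Pearson r of at least 0.88 (3 pairs) were averaged as 1 cell, a step added to the planned design, giving 428 cells. The labels name no animal, so each gate is 1 sample and no test was run. Fold is the ratio of mean TPM + 1, called at 2-fold, over genes with a mean of at least 1 TPM in either group. Since 1 was added, it understates the change of low genes. Shares of cells have exact Clopper-Pearson 95% intervals, and a count of 0 was read as allowing up to 3 cells. All 9 members are described. Other genes are named from fixed lists, when they differed at least 2-fold, or as the 5 most like the kallikrein sum or Slpi among genes present in at least 25% of cells. Members and lists were chosen with earlier results of these data known. Scripts were tested on simulated data and used Python 3.11.15, numpy 2.4.6, pandas 2.3.3, scipy 1.17.1 and matplotlib 3.10.9. Alternatives were other pseudocounts, filters, scalings, plates, repeat libraries, cell classes and sex-linked classes. Promoter sequences are RefSeq's, and gene positions are from GENCODE M21.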

Additional observations from a re-analysis of the deposited data

How the results depend on the processing

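No paired analysis was possible because no test was run and the labels give no replicate numbers that link cells of different gates. Depth is not known from TPM, and with 1 sample a gate nothing here bounds the spread between animals. Over the alternatives, 49 counts of members at least 2-fold different moved by more than 1.5 times, and the others did not. The cause of each change was not tested.

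Reporter-positive over CD44-negative α6+ cells kept 7 members higher within 1.5 times except with the mean of log2(TPM + 1), which gave 4. With that mean, reporter-positive over CD44+ reporter-negative cells had 5 higher instead of 8, CD44-negative α6+ over α6-negative cells 2 lower instead of 5, and CSC2 over CSC1 3 higher instead of 5. After transfer it gave 2 higher and 1 lower over reporter-positive cells, 2 higher over CD44-negative α6+ cells, and 0 higher on OT_B over OT2.

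After transfer over reporter-positive cells, 0 members were higher and 5 lower as reported. A pseudocount of 0.1, the repeat libraries and leaving out plate OT2 each gave 1 higher. Without plate CSC2 there were 5 higher and 2 lower, without ribosomal rows and spike-ins 2 higher and 3 lower, and without the highest cell of each group 2 higher and 2 lower. Libraries with 3000 to 6000 genes gave 3 lower. After transfer over CD44-negative α6+ cells, 5 were higher as reported, 2 with a pseudocount of 10, and 9 with 3000 to 6000 genes or with Xist cells alone.

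CD44-negative α6+ over α6-negative cells had 2 higher and 5 lower as reported. A pseudocount of 10 gave 0 higher and 3 lower, no filter 0 higher, and 3000 to 6000 genes 1 higher and 8 lower. At least 4000 genes, rescaling without ribosomal rows and spike-ins, and keratinocyte-led cells each gave 1 higher. CD44+ reporter-negative over CD44-negative α6+ cells had 3 lower as reported, 6 with a pseudocount of 0.1, 1 with a pseudocount of 10, 5 with 3000 to 6000 genes, 5 without the highest cells, and 3 higher and 1 lower with no filter.

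CSC2 over CSC1 had 9 higher with 3000 to 6000 genes, over only 4 and 2 cells, and that range of genes left 6 reporter-positive and 3 CD44+ reporter-negative cells in the other comparisons. On OT_B over OT2, 1 was higher and 1 lower as reported. Higher counts were 2 with a pseudocount of 0.1, with no filter, with the repeat libraries and without the highest cells, 4 after rescaling, and 0 with a pseudocount of 10, at least 4000 genes or 3000 to 6000 genes. Lower counts were 0 with a pseudocount of 10, with no filter and after rescaling, 2 with at least 4000 genes and 3 with 3000 to 6000 genes.

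Among log2 ratios of at least 2-fold, the sign of a member changed in 11 cases, and ratios within 2-fold that changed sign are not counted. Klk11 in CD44-negative α6+ over α6-negative cells was 0.13 with the mean of log2 values. With no filter, Slpi was -1.23 in that comparison and 2.69 in CD44+ reporter-negative over CD44-negative α6+ cells. With 3000 to 6000 genes, Klk13 was -1.22 in CD44-negative α6+ over α6-negative cells and Slpi 0.79 after transfer over reporter-positive cells. Without plate CSC2, Klk5 was -0.45 and Slpi -0.18 in reporter-positive over CD44-negative α6+ cells, and Klk7 was 1.44 and Slpi 2.28 after transfer over reporter-positive cells. Without the highest cells, an alternative chosen after seeing the data, as was counting same-plate repeats separately, the latter were 0.33 and 1.17. Leaving plate CSC2 out for listed genes, also chosen after seeing the data, turned Tslp to -1.31 in reporter-positive over CD44-negative α6+ cells and Cnfn to 0.53 after transfer over reporter-positive cells.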
